A study of Mus musculus with 18 samples.

Results

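The genes described here are 41 transcription factors that guide the development of T cells in the thymus, taken as a fixed list of names: HMG-box factors, zinc-finger lineage factors, Runx proteins and their partner, Ikaros proteins, E proteins and their Id inhibitors, Ets factors, factors driven by receptor signals, Myb and Myc, and 7 further regulators. They are 41 of 21900 protein-coding genes with a span in the RefSeq annotation of GRCm38.p6. Together they held 35253 of the 1190995 chimeric reads of the study, and each of the 41 held at least 19 (Id3, an inhibitor of E proteins) and at most 4859 (Satb1, a chromatin organiser of thymocytes). Contacts of microRNAs (miRNAs) were measured in total thymocytes from mice aged 6 weeks with miR-eCLIP. Living cells are crosslinked with UV light, Argonaute 2 (Ago2), the carrier of miRNAs, is pulled down, and each miRNA is ligated to the target piece it sits on, so that a sequenced chimera names both the miRNA and its contact. The 12 libraries used fall into 4 groups of 3: an Ago2 immunoprecipitation (IP) from C57BL/6 mice (wild type), the same from B6.Mirc14tm1.1Ankr mice labelled miR181a/b-1-KO (knockout), and from each genotype a library enriched for miR181-5p chimeras. The 6 input samples were not analysed here.

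In the mouse, miR-181a and miR-181b are made from more than one locus. The knockout lacks the Mir181a-1 and Mir181b-1 locus in the germline, in every cell, and keeps the other loci and the related miR-181c and miR-181d. The cells were unsorted thymocytes, so that a change in the share of a developmental stage and a change per cell cannot be told apart, nor can fewer transcripts and fewer contacts per transcript. No label says whether samples of a group came from separate animals, and p-values then measure only the spread between these samples, which may be technical.

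A developing thymocyte passes through stages set by transcription factors: Notch-induced TCF-1 (Tcf7), Gata3 and Bcl11b commit the cell to the T lineage, E proteins and Ikaros proteins control the receptor checkpoints, and Tox, Runx factors and ThPOK (Zbtb7b) sort CD4 from CD8 cells. A miRNA carried by Ago2 pairs with target RNA mainly through its seed, bases 2 to 8, and usually lowers the stability or translation of an mRNA. miR-181 is abundant in thymocytes at the CD4+CD8+ stage and is known for tuning the strength of T cell receptor signals.

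The miRNAs found most often on these genes are shown with the seed in capitals, since reads are grouped below by shared seed. Sequences are from RefSeq, GRCm38.p6. The 4 miR-181 forms share one seed, and the knockout removes a source of the first pair:
miR-181a-5p: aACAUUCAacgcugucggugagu
miR-181b-5p: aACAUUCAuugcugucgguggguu
miR-181c-5p: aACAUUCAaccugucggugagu
miR-181d-5p: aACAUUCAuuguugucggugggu
The leading members of the other abundant seed families carry different seeds:
miR-142a-3p: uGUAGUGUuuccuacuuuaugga
let-7a-5p: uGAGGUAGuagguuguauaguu
miR-20a-5p: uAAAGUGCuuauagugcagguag
miR-16-5p: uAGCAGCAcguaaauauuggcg
miR-30c-5p: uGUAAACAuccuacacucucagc
Below, "miR-181" means the 4 miR-181-5p forms together. The miR-20a-5p family also holds miR-17-5p, miR-20b-5p, miR-93-5p and miR-106a-5p.

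Libraries held between 43983 and 117849 chimeric reads in the Ago2 IP, between 194628 and 293149 in the wild-type enriched group and between 6832 and 19264 in the knockout enriched group, so that values of the last group are the least precise. Levels are given as reads per 1000000 chimeric reads of a library (rpm). The hairpins Mir181a-1 and Mir181b-1 had 0 reads in all 6 knockout libraries, against 363 to 545 and 136 to 237 in each wild-type Ago2 IP library. All 12 thymocyte markers on a fixed list had Ago2 IP reads (10408 to 13763 rpm summed), B cell and myeloid markers stayed at 65.8 rpm or less, and no marker of thymic epithelium or stroma had a read there. Knockout enriched libraries 2 and 3 were alike within counting noise over 136 genes (chi-square p = 0.153, against 0.0197 and 0.00637 for the other pairs). They shared 317 distinct reads, where the other pairs shared 257 and 473. They were kept as separate samples, and values with both summed as 1 sample stand beside the results they touch.

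In the knockout the transcription factors held a share of Ago2 contacts close to that in wild type, but almost without miR-181. The 41 genes held 3.60% ± 0.0616 (SD, n = 3) of wild-type Ago2 IP reads and 3.69% ± 0.0967 of knockout reads. miR-181 supplied 30.1% ± 1.32 of their wild-type reads and 1.38% ± 0.254 of their knockout reads, so the genotypes do not overlap. The same shares over all other genes were 30.9% ± 0.909 and 1.39% ± 0.0695 in wild type and knockout, close to those of the 41. In reads, 2481 of 8356 were miR-181 in wild type and 92 of 6651 in the knockout.

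The other seed families took up larger shares of what was left. miR-142a-3p, a miRNA of blood cells, supplied 26.2% of the members' wild-type Ago2 IP reads and 37.0% of their knockout reads, which made it the leading family in the knockout. The let-7 family went from 11.1% to 15.5%, the miR-17/20 family from 11.4% to 14.8%, miR-15/16 from 4.88% to 6.87% and miR-30 from 1.72% to 2.32%. Shares sum to a fixed total, so the loss of 1 family raises the others even where their contacts stay as they were. By gene, miR-181 led at 17 of the 41 members in wild type and at none in the knockout, and miR-142a-3p led at 16 and 29.

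**Figure D1:**
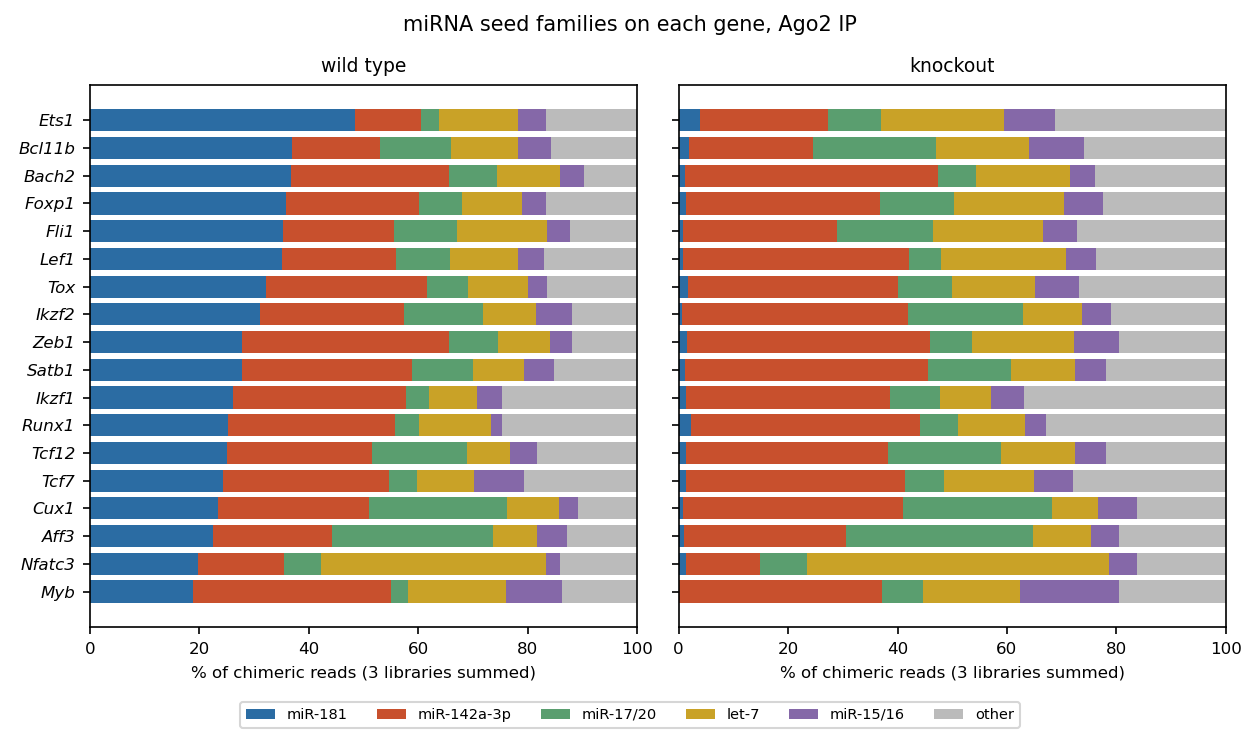
Share of Ago2 IP chimeric reads (%, 3 libraries summed) by miRNA seed family for the 18 genes with at least 100 reads in each genotype, wild type at left and knockout at right, ordered by the wild-type miR-181 share. miR-181 holds 48.5% of reads at Ets1 and 18.9% at Myb in wild type and little anywhere in the knockout.

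The few miR-181 reads that stayed in the knockout had a different make-up. In wild type, 75.8% ± 2.05 of the members' miR-181 reads were miR-181a and 22.7% ± 1.63 miR-181b, with miR-181c at 0.604% and miR-181d at 0.883%. In the knockout Ago2 IP the 4 forms held 33, 19, 21 and 19 reads. In the knockout enriched libraries, which hold 722 such reads, the forms took 39.8%, 19.0%, 26.0% and 15.2%. The forms that the deleted locus does not encode thus made up a far larger part of a much smaller total.

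Reads were then compared per gene and seed family, with edgeR's quasi-likelihood test and Benjamini-Hochberg adjustment over 736 pairs of gene and family, called at an adjusted p of at most 0.05. Of all 736 pairs, 33.0% were called, 4.76% higher and 28.3% lower. Of the 38 members with a wild-type miR-181 read, 18 had enough reads for the test, and all 18 were called lower in the knockout. This is no more than the background, since 197 of 197 such pairs over all genes were lower (100%), with a median log2 fold of -4.83 against -4.75 in the members (-4.43 and -4.75 with genes at 0 knockout reads set to the floor of 3 reads per library). A pair passed the read filter through its wild-type reads, so the count describes the loss and does not test it. The 18 calls held under each of 11 other settings, with log2 folds of -3.05 or below.

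**Figure D2:**
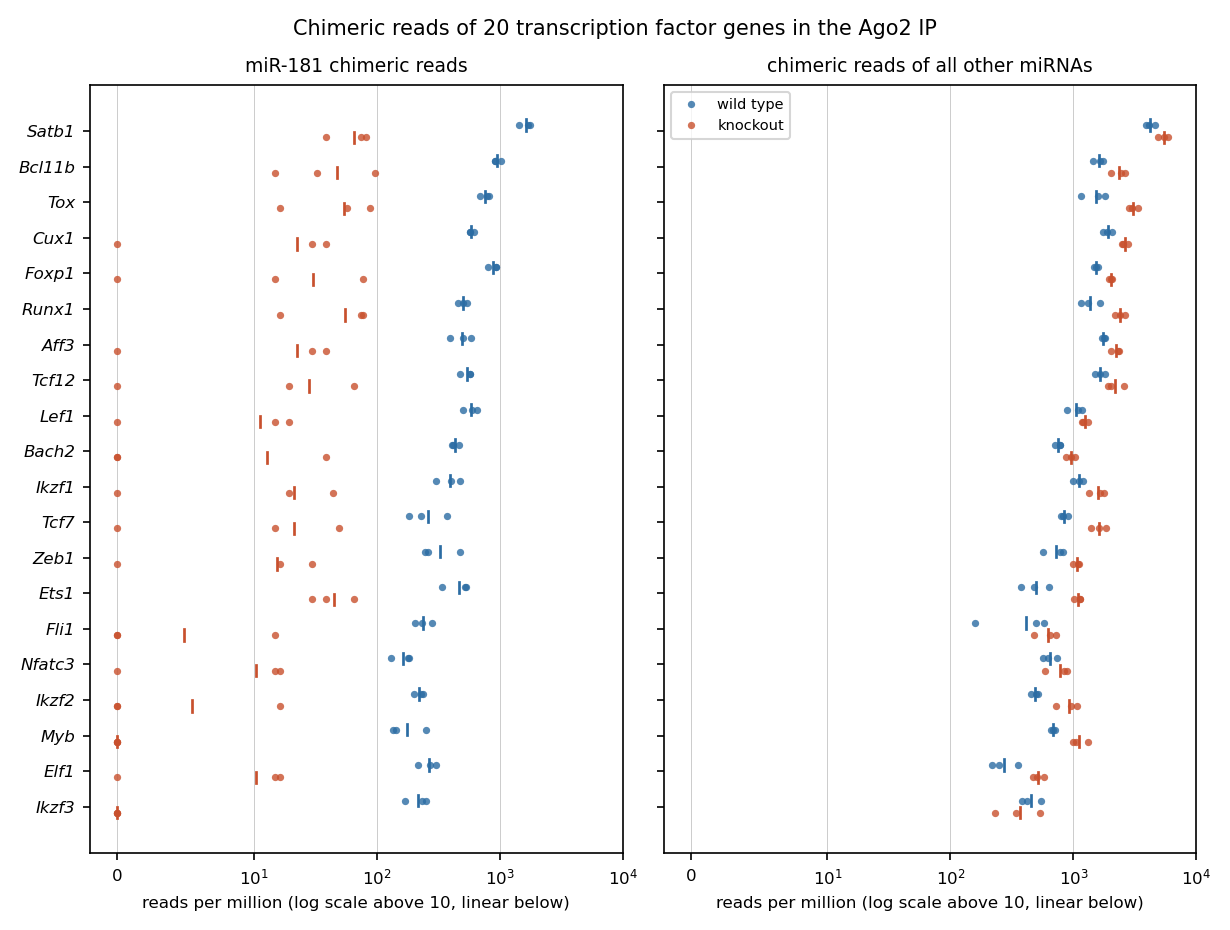
Ago2 IP chimeric reads (rpm) for the 20 genes with most reads over all libraries, miR-181 reads at left and reads of all other miRNAs at right (log scale above 10, linear below). Dots are libraries and ticks are group means. In the left panel every knockout library lies below every wild-type library for all 20 genes. The loss is not particular to them, since over all other genes the miR-181 share went from 30.9% to 1.39%. In the right panel the knockout mean is the higher one for 19 of the 20, all but Ikzf3, as a share of a total that has lost its miR-181 reads.

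Among the HMG-box factors, which bind and bend DNA, contacts moved in both directions. Tcf7, the TCF-1 gene that starts the T cell programme, and Tox, which is needed for CD4 lineage cells, had more Ago2 IP reads in the knockout. Lef1, a close relative of Tcf7, had fewer, a call near the threshold. Sox4 (-0.61 ± 0.32, SE, log2 fold of knockout over wild type) was not called. Over all genes tested for total Ago2 IP reads, 155 of 1555 were called (9.97%; 3.15% higher and 6.82% lower), and of the 24 members tested 4 were called, 2 higher and 2 lower. The median log2 fold was -0.10 over these members and 0.01 over all genes.

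Tcf7 (chr11:52246527-52283383, minus strand, GRCm38.p6) had 1018, 1202 and 1091 rpm in the 3 Ago2 IP libraries of wild type, and 1875, 1405 and 1612 rpm in those of the knockout. All knockout libraries lay above all wild-type libraries. The log2 fold was 0.55 ± 0.15 (SE, edgeR quasi-likelihood test, adjusted p = 0.00774). The rise came with the loss of nearly all miR-181 reads, from 27, 26 and 8 to 3, 1 and 0 (log2 fold -3.83). Reads of miR-142a-3p at Tcf7 went from 36, 24 and 16 to 35, 46 and 36 (0.60, adjusted p = 0.0353, edgeR) and those of let-7 from 12, 9 and 5 to 19, 14 and 15 (0.86, adjusted p = 0.0424, edgeR). The Tcf7 total was not called without wild-type library 1 (0.46, adjusted p = 0.0915, edgeR) or knockout library 1 (0.43, adjusted p = 0.105, edgeR). The miR-142a-3p call was also lost without any 1 of the libraries except knockout 1 (0.49 to 0.59), and the let-7 call without any except knockout 2 (0.71 to 0.91).

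Tox (chr4:6686353-6991557, minus strand) had 2274, 2591 and 1978 rpm in wild type and 3356, 2942 and 3071 rpm in the knockout, again with no overlap. Its log2 fold was 0.41 ± 0.12 (edgeR, adjusted p = 0.00925). With miR-181 reads left out of the counts, it was the only member called among 23 tested (0.44, adjusted p = 0.0262, edgeR), where 2.06% of 1263 genes were called, 0.554% higher and 1.5% lower. These values are relative to the typical gene: scaled to library totals instead of TMM factors, the median log2 fold of reads without miR-181 over all genes was 0.52, 432 genes were called (425 higher) and 15 members, all higher, with Tox at 0.98 and Tcf7 at 0.96. Reads of the miR-15/16 family at Tox went from 8, 8 and 3 to 16, 13 and 16 (1.21, adjusted p = 0.00961, edgeR). Of 539 pairs of a gene with a family other than miR-181, 6.49% were called higher and 2.04% lower, and in the members 3 of 43 were higher, those of Tcf7 and Tox just given, and 0 lower. With library totals the median over all 736 pairs was 0.35, and 166 were called higher and 200 lower, 16 and 18 of them in the members. Without wild-type library 3 (0.33, adjusted p = 0.107) or knockout library 1 (0.36, adjusted p = 0.0786) the Tox total was not called by edgeR. The Tox value without miR-181 was not called by DESeq2 (0.46, adjusted p = 0.365), nor when any 1 library except wild-type library 2 was left out (0.33 to 0.47). The miR-15/16 call was lost without wild-type library 1 (0.97), wild-type library 3 (1.09) or knockout library 3 (1.05).

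Lef1 (chr3:131110297-131224357, plus strand) went the other way, from 1765, 1390 and 1751 rpm to 1201, 1183 and 1344 rpm, with the highest knockout library just under the lowest wild-type one. Its log2 fold was -0.43 ± 0.15 (edgeR, adjusted p = 0.0432), and it was not called when any library but wild-type library 2 was left out (-0.34 to -0.47), or with library totals in place of TMM factors (-0.41, adjusted p = 0.0574, edgeR). miR-181 had supplied 134 of its 381 wild-type reads, and 2 of 223 in the knockout, a ratio of 52.4 (exact 95% counting interval 14.2 to 437). With miR-181 reads left out, Lef1 stood at -0.33 and was not called.

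**Figure D3:**
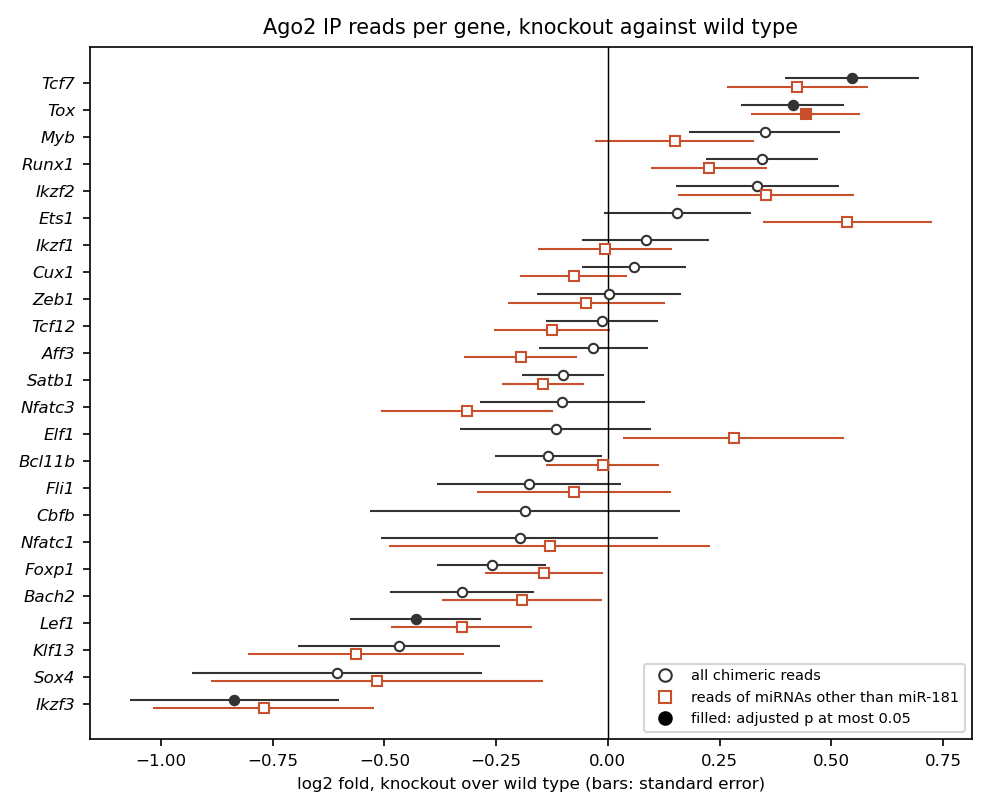
Log2 fold (knockout over wild type, Ago2 IP) with standard errors for the 24 tested genes, from all chimeric reads (circles) and from reads of miRNAs other than miR-181 (squares), with filled symbols for an adjusted p of at most 0.05. Tcf7 and Tox stand at the top and Ikzf3 at the bottom, at -0.84.

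Of the zinc-finger lineage factors, the 2 with reads enough for the test were not called in total reads. Bcl11b, which locks cells into the T lineage, had 2766, 2548 and 2365 rpm in wild type and 2056, 2454 and 2726 rpm in the knockout. The ranges overlap, and the log2 fold was -0.13 ± 0.12. Its miR-181 reads went from 121, 63 and 40 to 2, 1 and 5 (-4.75, edgeR adjusted p = 2.56e-10), out of 606 and 433 reads in all. Zeb1, a repressor that thymocytes need at early stages, stood at 0.00 ± 0.16, a fold relative to the typical gene. miR-181 had held 27.9% of its wild-type reads and 1.55% in the knockout. Over all other genes these shares were 30.9% and 1.39%.

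The other 5 of this group were sparse. Gata3, the factor of T lineage entry and CD4 cells, had 20 wild-type Ago2 IP reads, 7 of them miR-181, and 21 knockout reads, 0 of them miR-181. Zbtb7b, the ThPOK gene of the CD4 lineage, had 4 and 6 reads with 1 miR-181 read in each genotype, and was the only member whose mean miR-181 level was higher in the knockout. Patz1, Gfi1 and Zbtb1 had between 15 and 24 wild-type reads each and no miR-181 read in the knockout Ago2 IP. At these depths no difference between genotypes could be seen.

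Runx1, the main Runx factor of immature thymocytes, had 2087, 1810 and 1705 rpm in wild type and 2204, 2706 and 2457 rpm in the knockout. The groups do not overlap, but the log2 fold of 0.35 ± 0.12 missed the threshold (edgeR, adjusted p = 0.0601). Its miR-181 reads went from 54, 35 and 24 to 1, 5 and 4 (-3.48, edgeR adjusted p = 2.73e-08), which was the smallest fold among the 18 pairs tested. Cbfb, the partner that stabilises Runx proteins on DNA, had miR-181 in 20 of 43 wild-type and 0 of 30 knockout reads, at least 1.82-fold lower. Runx3, the factor of CD8 cells, had 14 and 7 Ago2 IP reads with no miR-181 read in either genotype, and 15 miR-181 reads in the wild-type enriched libraries.

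In the Ikaros family, zinc-finger proteins that restrain proliferation in lymphocytes, Ikzf3 (Aiolos) had the lowest fold in total Ago2 IP reads of any tested member. Its total went from 552, 652 and 796 rpm to 230, 340 and 537 rpm (chr11:98464610-98546031, minus strand, the strand taken from its reads). The highest knockout library lay just under the lowest wild-type library. The log2 fold was -0.84 ± 0.23 (edgeR, adjusted p = 0.00925), and -0.59 without knockout library 1 (adjusted p = 0.132, edgeR). Its miR-181 reads went from 20, 16 and 11 to 0, 0 and 0, at least 4.31-fold lower. Reads of other miRNAs also stood lower at -0.77 ± 0.25, a value that was not called (edgeR, adjusted p = 0.0777).

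Ikzf3 was also the only member called between genotypes in the enriched libraries, 1 of 27, where 3.52% of 2047 genes were called, 1.37% higher and 2.15% lower. It had 402, 446 and 493 rpm in wild type against 246, 104 and 146 rpm in the knockout, the latter from 6 reads in all. The log2 fold was -1.78 ± 0.40 (edgeR, adjusted p = 0.0173), and the call was lost without any 1 of the knockout libraries (adjusted p from 0.051 to 0.0954, edgeR). With library totals in place of TMM factors Ikzf3 was not called (-1.50, adjusted p = 0.0508, edgeR) and Tox was, as higher (0.68, adjusted p = 0.0276, edgeR), with 53 genes higher and 23 lower in all. The call was also lost with DESeq2 (-1.75, adjusted p = 0.0853) and with a replicate block (-1.76, adjusted p = 0.0967, edgeR). With knockout libraries 2 and 3 summed as 1 sample Ikzf3 was called (-1.86, adjusted p = 0.0308, edgeR). Ikzf1 (Ikaros) was not called in the Ago2 IP (0.08 ± 0.14), nor was Ikzf2 (Helios, 0.33 ± 0.18). Their miR-181 reads went from 89 to 4 and from 52 to 1.

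The 4 total-read calls in the Ago2 IP did not hold with another tool. With DESeq2's Wald test none of Tcf7, Tox, Ikzf3 and Lef1 was called (adjusted p = 0.109, 0.101, 0.146 and 0.311), and 51 genes were called in all.

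Of the E proteins, which drive receptor gene rearrangement, and the Id proteins, which block them, Tcf12 (HEB) alone had reads enough to test. It was level at 2198, 1969 and 2365 rpm in wild type and 1990, 2011 and 2591 rpm in the knockout (-0.01 ± 0.13), while its miR-181 reads went from 67, 33 and 25 to 4, 0 and 1 (-4.56). Tcf3, the E2A gene, had 9 and 6 reads, and Id3 had 6 and 6. Id2 had 11 wild-type Ago2 IP reads and 0 in the knockout. In the enriched libraries it had 27 wild-type reads against 0 in the knockout, whose libraries are far shallower. In neither assay are these enough to tell the genotypes apart.

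Among the Ets factors, which open regulatory DNA in lymphocytes, were the 2 tested members richest in miR-181. At Ets1 miR-181 supplied 48.5% of wild-type reads, at Elf1 48.1% and at Fli1 35.4%, against a median of 31.7% over the 24 tested members. The Ets1 total was 1154, 912 and 818 rpm in wild type and 1086, 1153 and 1171 rpm in the knockout, with overlapping ranges. Its log2 fold, relative to the typical gene, was 0.16 ± 0.16. Its miR-181 reads went from 62, 37 and 15 to 4, 2 and 2 (-3.77, edgeR adjusted p = 1.73e-08). Without miR-181 reads its fold was 0.54 ± 0.19, the highest of the members, and not called (edgeR, adjusted p = 0.128). Elf1 (-0.12 ± 0.21) and Fli1 (-0.18 ± 0.21) were not called in total. Ets2, too sparse to test between genotypes in the Ago2 IP, had miR-181 in 22 of 50 wild-type and 0 of 21 knockout reads, at least 1.71-fold lower.

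Factors switched on by receptor signals were mostly sparse. Nfatc3, a calcium-driven factor, was the exception, and let-7 was its leading family with 79 of its 192 wild-type reads. Its total was 908, 753 and 750 rpm in wild type and 609, 857 and 883 rpm in the knockout, with overlapping ranges (-0.10 ± 0.18). Its span overlaps another gene's, and 17 of its reads lie in the shared stretch. Nfatc1 was not called (-0.20 ± 0.31). Egr1, Egr3, Nr4a1, Rel and Nfkb1, which respond to T cell receptor signals, had between 8 and 38 wild-type Ago2 IP reads each and were not tested between genotypes there. Their miR-181 reads in the wild-type Ago2 IP were 2, 5, 0, 2 and 12, and in the knockout 0, 0, 0, 0 and 1. In the enriched libraries Nfkb1, an NF-kB subunit, had the lowest fold between genotypes of the 27 members tested (-2.17 ± 0.70), from 164, 197 and 236 rpm to 82.1, 51.9 and 0 rpm, without overlap and not called (edgeR, adjusted p = 0.0877). Each of these knockout values lies below the floor of 3 reads per library, so the fold and the lack of overlap rest on very few reads.

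Myb, a factor of thymocyte survival and proliferation, had the lowest miR-181 share of the tested members, 18.9%. Its total was 823, 854 and 909 rpm in wild type and 1053, 991 and 1305 rpm in the knockout, without overlap but not called (0.35 ± 0.17, edgeR adjusted p = 0.195). Its miR-181 reads went from 16, 10 and 11 to 0, 0 and 0, at least 3.51-fold lower. Myc, which drives growth, had 20 and 25 reads, of which 12 and 13 were let-7.

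The remaining regulators hold the most heavily contacted gene of the list. Satb1 (chr17:51736187-51833290, minus strand) had 13.5 wild-type Ago2 IP reads per kb of its span, ahead of Sox4 (12.1), Tcf7 (6.81) and Bcl11b (6.46), while long genes such as Foxp1 (0.929) and Bach2 (0.797) were sparser. Its total was 5329, 5834 and 6343 rpm in wild type and 5939, 5529 and 4933 rpm in the knockout, with overlapping ranges (-0.10 ± 0.09). Reads of miR-181 at Satb1 went from 169, 118 and 78 to 5, 5 and 2 (-4.93, edgeR adjusted p = 1.62e-11), while those of miR-142a-3p were 186, 125 and 95 in wild type and 162, 170 and 108 in the knockout (0.06 ± 0.15). Altogether 92 different miRNAs were joined to Satb1 RNA in the Ago2 IP, against a median of 40 per member. Satb1 also had the most reads, and Tox and Runx1, with fewer reads, had 88 and 85 miRNAs.

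Foxp1, which keeps T cells quiescent, went from 199 miR-181 reads to 5 (-5.24), and its total went from 2367, 2461 and 2410 rpm to 2023, 2070 and 2035 rpm. The groups do not overlap, but the fold of -0.26 ± 0.12 was not called (edgeR, adjusted p = 0.182). Bach2, a repressor of effector genes, was similar in size (-0.33 ± 0.16, not called), with 102 wild-type and 2 knockout reads of miR-181, a ratio of 39.9 (exact 95% counting interval 10.8 to 334). Cux1 (0.06 ± 0.12) and Aff3 (-0.03 ± 0.12) were level, and at Aff3 the miR-17/20 family led in both genotypes with 155 of 525 and 138 of 405 reads. Klf13 stood at -0.47 ± 0.23 and was not called, and Klf6 had 16 and 18 reads.

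Across the 24 tested members, a higher wild-type miR-181 share went with a slightly lower knockout fold (Pearson r = -0.294, Spearman rho = -0.46). The share and the fold rest on the same wild-type libraries, so this is only a description. Ets1 and Elf1, with the highest shares, had folds near 0, and Ikzf3, with the lowest fold, had a share near the median (32.4%).

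Most contacts were scattered along the genes, and a smaller part lay at sites with many reads. Reads whose positions lay at most 20 nt apart on one strand were joined into a site. The members' 15007 Ago2 IP reads gave 7518 sites, of which 5722 held 1 read. The 76 sites with at least 20 reads lay in 17 members and held 22% of the reads. At 31 of these 76 sites at least 80% of the reads fell under a single label, a seed family or the minor families together. The label was most often miR-142a-3p (12 sites), then the miR-17/20 family (6), miR-181 (5) and let-7 (4). At 3 of the 31 sites it was the minor families counted together, so a single family was not shown there. The 3′ UTR lies near the end of a gene, and 12.8% of the members' Ago2 IP reads fell in the last 5 kb of the span. For the 22 members with spans of 50 kb or more it was 9.89%, and for the 19 shorter members 38.2%. Other genes with spans of 50 kb or more had 18.0%. Lengths above 50 kb were not matched, and 5 kb is a smaller part of a longer span. Over all members the share in the last 5 kb was close for miR-181 reads (12.7%) and other reads (12.9%). Whether a site is exonic or intronic was not analysed here.

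The tested sites led by miR-181 in wild type that are named next held fewer reads in the knockout. Most of them passed the read filter through their wild-type reads, so the values describe the loss and do not test it. At Satb1, chr17:51777823-51778003 held 33, 24 and 9 wild-type Ago2 IP reads, 47 of the 66 being miR-181, and 2, 1 and 0 in the knockout, a ratio of 17.2 (edgeR, adjusted p = 2.68e-08). A second Satb1 site, chr17:51825769-51825917, went from 29, 18 and 18 to 10, 5 and 4 (log2 fold -1.56, adjusted p = 0.000851, edgeR), and 41 of its wild-type reads but 0 of its knockout reads were miR-181. At Bcl11b, chr12:107913191-107913579, within 2788 nt of the span's end, went from 21, 12 and 8 to 2, 2 and 2 (-2.49, adjusted p = 1.24e-05, edgeR). Of the 13 member sites tested 4 were called, 3 lower and 1 higher, against 36.3% of the 251 sites tested over all genes, 25.5% lower and 10.8% higher. With library totals 42 sites were called higher and 63 lower, 2 and 3 of them in the members.

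Below the filter of the test, smaller miR-181 sites at Lef1, Bach2, Foxp1 and Tox also held fewer knockout reads, but one at Tcf7 did not. Lef1 held one at chr3:131158920-131159046 with 38 wild-type and 1 knockout read, and Bach2 one at chr4:32302626-32302709 with 33 and 0, at least 2.39-fold lower. At Foxp1 chr6:99476982-99477112 had 22 and 0 reads, at least 2.37-fold lower. At Tox chr4:6978601-6978753 had 33 and 9 reads, of which 30 and 2 were miR-181. Of their Ago2 IP reads, miR-181 supplied 92.3% at the Lef1 site, 93.9% at Bach2, 95.5% at Foxp1 and 76.2% at Tox. At Tcf7, chr11:52253593-52253904 had 17 wild-type Ago2 IP reads, 12 of them miR-181, and 16 knockout reads, 0 of them miR-181. Its mean was 79.1 rpm in wild type and 85.7 rpm in the knockout.

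Other sites kept their reads and their miRNA. At Aff3, chr1:38526720-38526948 had 109 wild-type and 94 knockout reads, 91.1% of them from the miR-17/20 family (log2 fold 0.01, not called). At Cux1, chr5:136550195-136550446 had 90 and 82 reads, 92.4% from the same family (0.08). At Nfatc3, chr8:106108480-106108638 had 59 and 55 reads, 86.8% of them let-7 (0.13). Satb1 carried several such sites, of which 2 are given here. One, chr17:51736854-51737066, 667 nt from the span's end, had 57 and 63 reads with 87.5% from the miR-17/20 family, and the other, chr17:51804431-51804552, had 30 and 29 reads with 94.9% from miR-142a-3p. None of these sites was called.

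One site rose. At Tcf7, chr11:52253085-52253298 went from 25, 16 and 10 reads to 33, 23 and 25 (0.87 ± 0.29, adjusted p = 0.0144, edgeR), with miR-142a-3p as its leading miRNA (39.4% of its Ago2 IP reads) and 1 miR-181 read in the Ago2 IP. The call was lost without any 1 of the wild-type libraries or without knockout library 1 (0.72 to 0.76). At Myb, a miR-15/16 site at chr10:21125362-21125481, 432 nt from the span's end, had 12, 4 and 8 wild-type and 12, 14 and 12 knockout reads, and was not called (0.86 ± 0.38, edgeR adjusted p = 0.0768), but was called higher with library totals (edgeR adjusted p = 0.034).

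**Figure D4:**
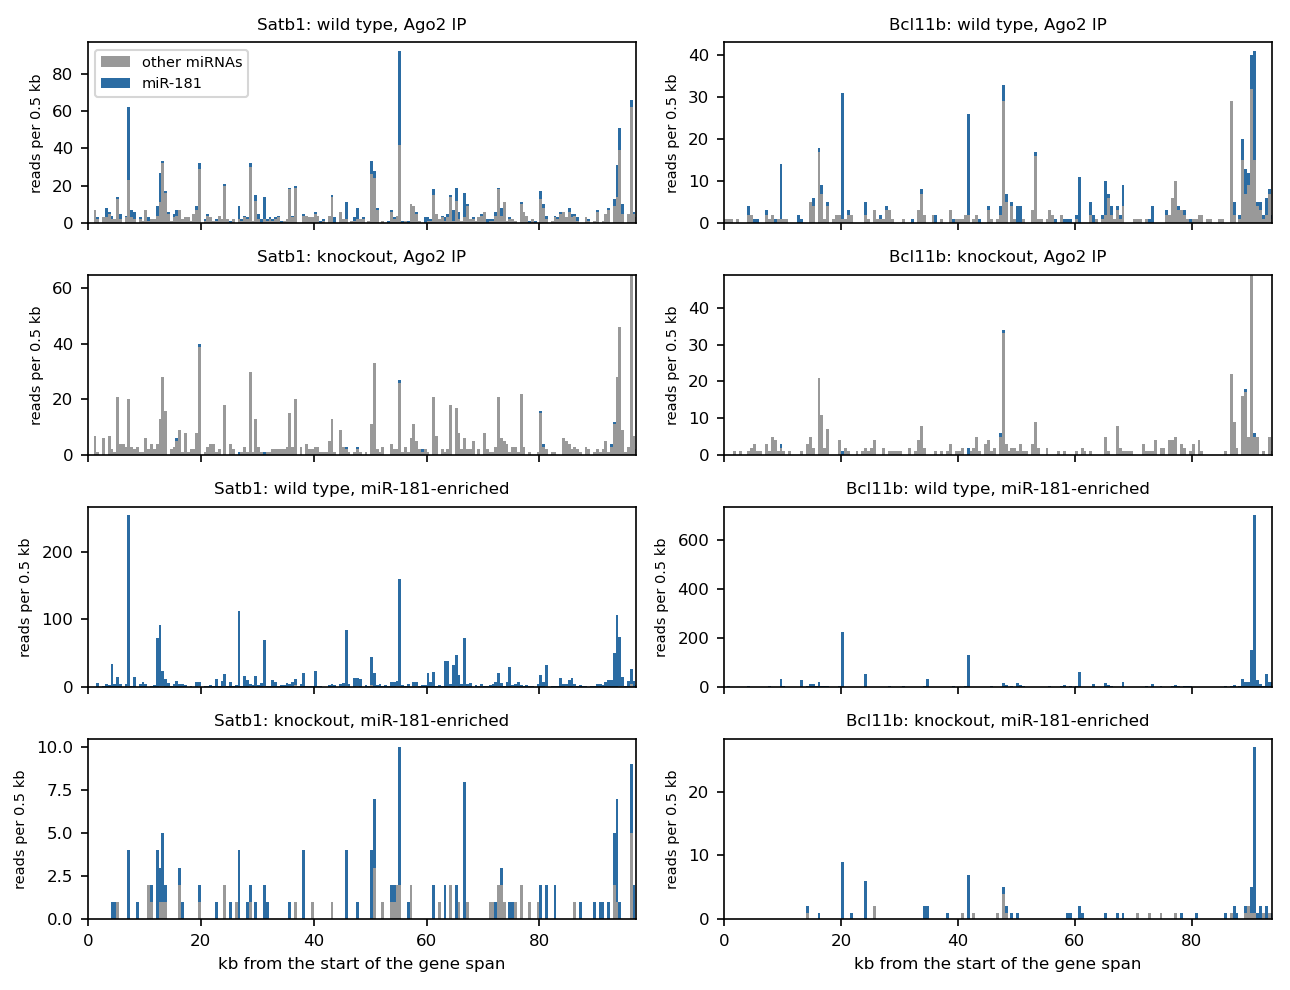
Chimeric reads per 0.5 kb along Satb1 and Bcl11b, measured in kb from the start of the gene span, in each of the 4 groups (3 libraries summed), with miR-181 in blue and other miRNAs in grey. Each panel has its own vertical scale. The blue bars of the wild-type Ago2 IP are almost absent from the knockout Ago2 IP, and the enriched panels are led by a few blue bars, at Bcl11b by 1 site with 699 wild-type reads.

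Enrichment for miR-181 showed where the remaining contacts lie. In the wild-type enriched libraries all 41 members had miR-181 reads, the fewest at Nr4a1 (6), and miR-181 supplied 98.9% ± 0.463 of the members' reads. In the knockout enriched libraries 36 members still had miR-181 reads, and the share was 65.0% ± 1.57, in every library below the 72.0% ± 0.758 of the other genes. miR-142a-3p held 13.4% ± 1.38 of the members' reads there against 9.81% ± 0.656 for other genes. The members made up 2.59% ± 0.0479 of the wild-type and 2.83% ± 0.156 of the knockout enriched libraries.

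Against the wild-type Ago2 IP, enrichment raised some members and lowered others: 5 of 31 were called higher, where 19.6% of 3011 genes were, and 5 lower, where 15.8% were (35.3% in either direction). The fold compares a gene's level among enriched reads with its level among all Ago2 IP reads, relative to the typical gene. The higher ones were Zbtb1 (1.44 ± 0.36, edgeR adjusted p = 0.00145), needed for lymphoid development, Ets2 (0.99 ± 0.23), Sox4 (0.63 ± 0.23), Bach2 (0.49 ± 0.15) and Bcl11b (0.48 ± 0.12). The lower ones were Gfi1 (-1.19 ± 0.43), a zinc-finger repressor, Myb (-0.77 ± 0.17), Tcf12 (-0.53 ± 0.13), Satb1 (-0.46 ± 0.11) and Aff3 (-0.40 ± 0.13). With library totals in place of TMM factors the median over all genes was -0.40, and 356 genes were called higher and 1030.0 lower. Of the members, 2 were then higher, Zbtb1 (1.06) and Ets2 (0.61), and 17 lower, the 5 just named among them, while Sox4 (0.24), Bach2 (0.10) and Bcl11b (0.09) were not called.

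Zbtb1 had 50.9, 101 and 45.5 rpm in the wild-type Ago2 IP and 136, 130 and 144 rpm after enrichment, without overlap, and the call was lost without wild-type Ago2 IP library 1 (1.16). Myb went from 823, 854 and 909 rpm to 314, 414 and 432 rpm, also without overlap. At Bcl11b the rise was not seen with repeated reads counted once in all libraries, where the gene's fold was -0.0091. Repeated reads, with the same position, strand and miRNA within a library, made up 68.2% at its site with 699 enriched reads. At the largest enriched site of Bach2, chr4:32345595-32345612, they made up 74.4% of 164 wild-type enriched reads, and 106 of the 164 came from library 1. Bach2 was not called without wild-type enriched library 1 (0.31), nor Sox4 without wild-type Ago2 IP library 2 (0.47) or 3 (0.60) or enriched library 2 (0.61). Aff3 was lost without wild-type Ago2 IP library 1 (-0.35) or enriched library 2 (-0.37) or 3 (-0.27). Gfi1, with 21 and 22 reads, was lost without any 1 of the wild-type Ago2 IP libraries or without enriched library 1 (-0.69 to -1.28).

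**Figure D5:**
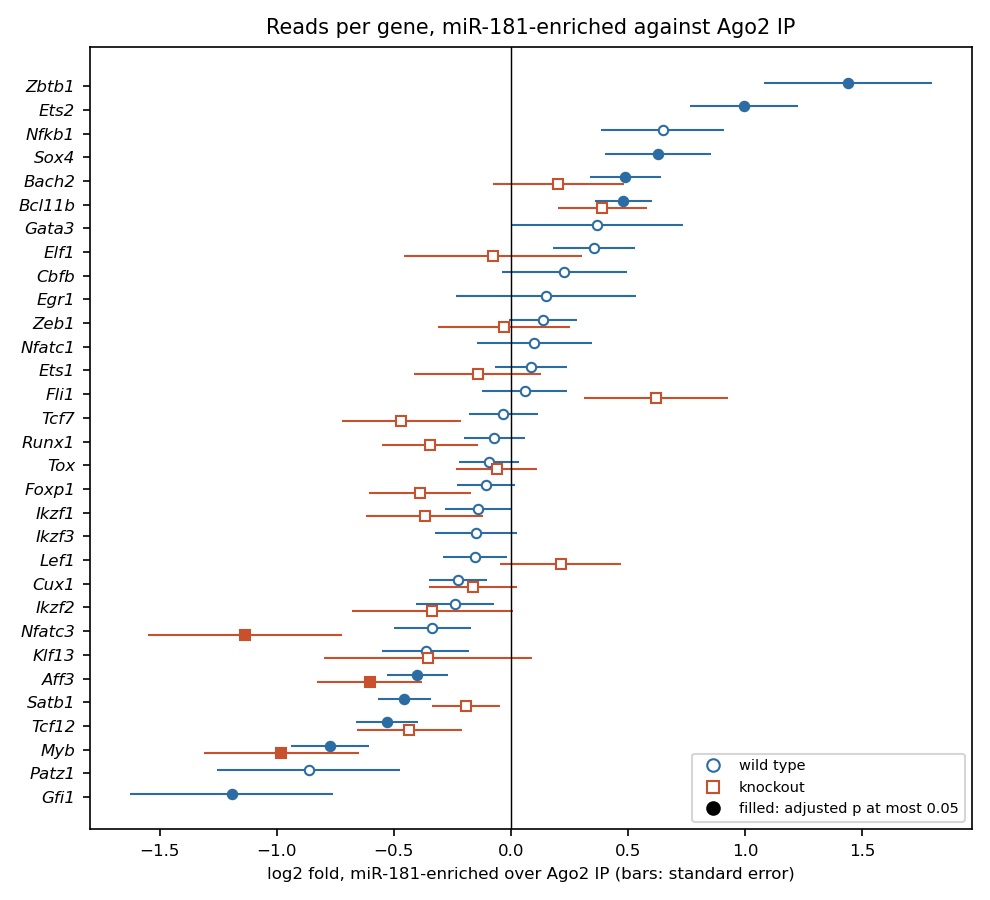
Log2 fold of miR-181-enriched over Ago2 IP reads per gene, with standard errors, in wild type (blue circles, 31 genes) and knockout (red squares, 20 genes), with filled symbols for an adjusted p of at most 0.05. Wild-type folds run from -1.19 at Gfi1 to 1.44 at Zbtb1.

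In the knockout, 3 of 20 members were called lower after enrichment, where 5.44% of 790 genes were, and none was called higher, where 15.2% were (20.6% in either direction). With library totals, 113 genes were higher and 86 lower, and 6 members were lower. Myb stood at -0.98 ± 0.33 (edgeR, adjusted p = 0.0253), Nfatc3 at -1.14 ± 0.41 (adjusted p = 0.0406) and Aff3 at -0.60 ± 0.23 (adjusted p = 0.0479). The enriched values rest on 19, 12 and 50 reads, and at Nfatc3 the groups overlap. DESeq2 called none of the 3 (adjusted p = 0.103, 0.186 and 0.197). With knockout enriched libraries 2 and 3 summed as 1 sample, 1 of 25 members was called, Myb (-0.93, adjusted p = 0.0478, edgeR), and leaving out 1 library gave between 0 and 10 calls in the members. Without knockout enriched library 1 or 2, Nfatc3 (-1.01 and -0.83) and Aff3 (-0.75 and -0.40) were lost, and Myb was lost without any 1 of the 3 (-0.88 to -1.33).

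A further list of 76 transcription factors of blood cells was tested in the same fits. In the Ago2 IP 2 of 17 tested were called between genotypes, against 9.97% of all genes, both lower in the knockout: Klf3 (-0.79, edgeR adjusted p = 0.00259), a repressor of the Krüppel-like family, and Etv6 (-0.79, edgeR adjusted p = 0.0309), an Ets repressor. In the enriched libraries 0 of 20 were called, against 3.52% of all genes. Between enriched and Ago2 IP libraries, 4 were higher and 6 lower of 26 in wild type, against 19.6% and 15.8% of all genes. In the knockout 1 of 9 was lower, Zbtb20 (-0.85), against 5.44% of all genes.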

How the data were processed

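Deposited files list, per library and strand, counts of chimeric reads: each line is 1 read at a position 1 nt wide with its miRNA, as the authors deposited them and without scaling. Whether duplicates were collapsed before deposit is not given in the sources used here: reads repeating a position, strand and miRNA were kept, and made up 27.9% to 34.1% of wild-type enriched libraries against 3.24% to 7.91% of the others. The submitters' processing notes name Bowtie2 2.4.5, SAMtools 1.11, STAR 2.7.10, UMI-tools 1.1.1 and bedtools 2.30.0 and the builds mm10 and GRCm38.p6, with no roles. Libraries were read as pairs of 150 nt after crosslinking at 254 nm, per the labels' protocols.

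Reads were counted in RefSeq GRCm38.p6 gene spans on the gene's strand. A promoter table gave the strand of 30 members and the majority of reads that of 11, and 0.353% of member reads lay on the opposite strand. miRNAs sharing bases 2 to 8 formed a family. Counts were tested with edgeR 4.0.16 (quasi-likelihood, TMM factors, minimum count 10) in R 4.3.3, each fit with only the groups compared and adjusted over all features tested, and DESeq2 1.42.0 was an alternative. Each fit was tested on simulated data. Intervals (95%, exact) and the floor of 3 reads per library cover counting error only. Replicate numbers were not used as pairs, since in no comparison did every same-numbered pair correlate above 0.1 (deviations from group means, -0.135 to 0.196).

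The members and gene lists were chosen with earlier results of these data known. Members named were those called in a fit over reads per gene and the 15 with most reads, with their 3 leading families and their largest sites. The 41 are covered by role, and other values were named after they were seen: members not called, and sites with at least 20 reads.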

Additional observations from a re-analysis of the deposited data

How the results depend on the processing

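The 18 miR-181 pairs kept their call in all 198 alternative values. They passed the read filter through their wild-type reads, so this describes the loss and does not test it. The 26 other called values of members gave 321 alternative values, of which 222 kept the call, 98 lost it and 1 reversed; of 1878 alternative values of members not called, 79 were called in the same direction, 8 reversed, and 221 changed sign without a call on either side. With DESeq2, 51 genes were called between genotypes in the Ago2 IP (3 higher, 48 lower, against 49 and 106) and 0 members; without miR-181 reads 4 genes (0 higher) and 0 members. In the enriched libraries it called 0 members, against Ago2 IP 597 genes and 6 members in wild type and 0 members in the knockout. Library totals without TMM factors shift the median log2 fold of reads without miR-181 to 0.52, of pairs to 0.35 and of wild-type enrichment to -0.40. They called 432 genes (425 higher) and 15 members without miR-181 reads, 366 pairs (166 higher) and 34 in members, and 19 members (2 higher) in wild-type and 6 in knockout enrichment. Under them values without miR-181 that were below 0 turned above it: Aff3 0.34, Bcl11b 0.52, Cux1 0.45, Foxp1 0.39, Ikzf1 0.53, Satb1 0.39, Tcf12 0.41 and Zeb1 0.48. With no filter, calls were 2 members in the Ago2 IP, 187 genes and 7 members in the enriched libraries, 11 members in knockout enrichment, 15 genes without miR-181 reads, 1661 pairs, and 318 sites with 10 in members. The number of features tested differs between settings. The member counts of this section are therefore not shares, and were not compared with those of all genes. With identical reads counted once, Bcl11b's wild-type enrichment turned to -0.0091 and the members' part of wild-type enriched libraries was 3.16%. Libraries 2 and 3 of the knockout enriched group summed gave 1 member called against Ago2 IP. A replicate block gave 117 genes in the Ago2 IP, and 22 genes and 0 members in the enriched libraries; in knockout enrichment against Ago2 IP each sample correlated best with its own number, a hint from the data only. Leaving out 1 library gave 116 to 149 genes (1 to 4 members) in the Ago2 IP, 18 to 78 (0 to 1) enriched, 808 to 1079 (8 to 9) and 93 to 189 (0 to 10) for enrichment in wild type and knockout, 13 to 21 (0 to 1) without miR-181 reads, 218 to 348 pairs (18 to 21) and 75 to 125 sites (3 to 5). The cause of these shifts was not tested. Depth limits the knockout enriched values and the 17 members untested in the Ago2 IP, each with 50 or fewer wild-type reads.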
